A study of Mus musculus with 4 samples.

Results

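The cytosolic ribosomal protein genes of mouse embryonic stem cells were examined in Chd2 mut/mut cells and in wild-type cells. The members are the rows of the deposited expression table whose gene symbol is that of a large-subunit (Rpl, Rplp) or small-subunit (Rps, Rpsa) protein of the cytosolic ribosome, with pseudogenes and the Rps6k kinases left out. The symbol pattern matched 83 rows, and Rps4y2 was removed because RefSeq annotates its locus, now named Rps4l, as a transcribed pseudogene. This left 82 genes of the 23309 listed, 50 of the large and 32 of the small subunit. Of these, 76 are canonical genes and 6 are paralogs, namely Rpl39l, Rpl22l1, Rps27l, Rpl3l, Rpl7l1 and Rpl10l. A mean of at least 1 FPKM over the genotypes was reached by 81 members, all but Rpl3l, and by 10766 genes in all, which are called the genes kept. Rpl34 has no row of its own and shares one with its pseudogene, so it is not among the members. That shared row was at 135 FPKM in the mutant and 140 FPKM in wild type. A separate row of Rpl34-ps1 was at 2824 FPKM in the mutant and 3078 FPKM in wild type. Both were lower in the mutant, as was Rps4y2 with 1047 FPKM in the mutant and 1102 FPKM in wild type. The pseudogenes Rps15a-ps6 and Rps19-ps3 were higher in the mutant, at only 2.83 and 3.67 FPKM there.

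Each genotype had 2 RNA sequencing libraries of total RNA, marked as lots in the titles, from cells of the 129/Ola strain at passages 10 to 20. The mutant carries a changed Chd2 on both alleles, is called Chd2KO in the sample titles, and was grown like the wild type on gelatin, in serum medium that held leukemia inhibitory factor. The labels do not say what the mutation is, how the lines are related, or whether the lots are separate cultures. The table holds 1 value per gene and genotype in FPKM, which is a fragment number scaled for transcript length and library size, so no value below has a replicate error, the depth is unknown, and significance is only that of the q-value in the authors' deposited table.

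The ribosome translates messenger RNA into protein. Its small subunit decodes the message, its large subunit joins the amino acids and passes the chain through an exit tunnel, and nearly every ribosomal protein is present in a single copy per particle. The mRNAs of these genes are among the most abundant in growing cells, and many begin with a 5′ terminal oligopyrimidine tract (TOP), a C followed by a run of C and T, through which mTOR signalling and the RNA-binding protein Larp1 control their translation. A few ribosomal proteins have a paralog encoded elsewhere, often expressed in a narrower set of tissues. Rpl39l, for example, is the paralog of Rpl39 that mouse male germ cells put into their ribosomes.

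Sequences around the annotated transcription start are shown for 3 paralogs, each followed by its canonical partner, because the genotypes differed most in one of these paralogs. Each runs from 40 bases before the start to 25 bases from it, read 5′ to 3′ on the gene's strand from RefSeq promoters of build GRCm38.p6. A tract is here a C followed by at least 5 pyrimidines that begins within 20 bases of the start, and capitals mark the longest tract of a window, or the later one where the lengths are equal. Rpl39 has an equally long tract upstream of the marked one, at the edge of that range.
Rpl39l (chr16:10170188-10170252, plus strand): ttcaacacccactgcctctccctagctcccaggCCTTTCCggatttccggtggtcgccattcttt
Rpl39 (chrX:37085198-37085262, minus strand): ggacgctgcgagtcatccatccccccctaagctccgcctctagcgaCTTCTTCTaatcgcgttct
Rps27l (chr9:66946046-66946110, plus strand): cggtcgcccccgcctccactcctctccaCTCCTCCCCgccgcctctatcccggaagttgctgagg
Rps27 (chr3:90213624-90213688, minus strand): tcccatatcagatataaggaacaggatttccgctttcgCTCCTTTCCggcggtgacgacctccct
Rpl22l1 (chr3:28805468-28805532, plus strand): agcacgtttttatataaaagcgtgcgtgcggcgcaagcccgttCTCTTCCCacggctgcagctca
Rpl22 (chr4:152324396-152324460, plus strand): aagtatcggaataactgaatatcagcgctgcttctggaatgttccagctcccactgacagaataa

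All of these windows except that of Rpl22 hold such a tract. It is 7 bases long in Rpl39l and 8 in Rpl39. RefSeq promoters were found for 62 members, and 37 of them (59.7%) had a tract in this window, against 31.3% of the 27025 promoters of all genes and 30.6% of those of the genes kept. The letters CCGGAAG, the core recognised by the factor GABPA, were present on either strand of the 300-base promoter in 25 of the 62 (40.3%), against 9.14% of all promoters and 20.4% of those of the genes kept. The letters AAGATGGC, of the kind bound by YY1, were present on either strand in 6 (9.68%), against 2.87% of all promoters and 5.34% of those of the genes kept. The GABPA letters end in the AAG with which the YY1 letters begin, so matches to both can overlap. No member had both, which are rare together, in 0.437% of all promoters and 1.16% of those of the genes kept. These are matches of letters near annotated starts and not binding sites.

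Before the members, the labels were checked. Chd2 was at 5.69 FPKM in the mutant and 10.2 FPKM in wild type, a fall that the authors' deposited table calls at a q-value of 0.0103. All 10 markers of embryonic stem cells were above 1 FPKM in both genotypes, and 8 of them were listed higher in the mutant, with none called. Pou5f1 was at 1071 FPKM in the mutant and 1032 FPKM in wild type, Nanog at 150.1 FPKM in the mutant and 114 FPKM in wild type, and Sox2 at 222 FPKM in the mutant and 178 FPKM in wild type. Of 8 fibroblast and feeder markers, Thy1 alone reached 1 FPKM, and Col3a1, Fap, Lum and Postn were listed at 0 in both genotypes. None of 7 primitive and visceral endoderm markers reached 1 FPKM, and of 5 neuronal markers Tubb3 and Map2 did.

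Ribosomal protein mRNAs dominated the table. The members summed to 275614 FPKM in the mutant and 257968 FPKM in wild type, which is 34.1% of the summed FPKM of all genes in the mutant and 32.0% in wild type. Of the genes with at least 1000 FPKM, 68 of 129 in the mutant and 68 of 131 in wild type were members. The summed FPKM of the members in the mutant was 1.07 times that in wild type, with and without Rpl26. Large-subunit genes summed to 148271 FPKM in the mutant and 139685 FPKM in wild type, and small-subunit genes to 127343 FPKM in the mutant and 118284 FPKM in wild type. The large subunit, with 50 genes against 32, thus had 1.16 times the sum of the small in the mutant and 1.18 times in wild type. Per gene the order was the other way. Without Rpl26, the median canonical large-subunit gene was at 2902 FPKM in the mutant and 2684 FPKM in wild type. The median canonical small-subunit gene was at 3673 FPKM in the mutant and 3413 FPKM in wild type.

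Levels differed widely between canonical members, although most of their proteins occur once per ribosome. Rplp1, an acidic protein of the stalk that recruits translation factors, was the most abundant, with 11647 FPKM in the mutant and 11241 FPKM in wild type. Rpl41, whose coding sequence has only 75 bases, followed with 9643 FPKM in the mutant and 9022 FPKM in wild type. Next came Rps12, of the beak of the small subunit, with 8851 FPKM in the mutant and 7978 FPKM in wild type. Rps28, with 7998 FPKM in the mutant and 8027 FPKM in wild type, and Rps27, with 7862 FPKM in the mutant and 7321 FPKM in wild type, completed the 5 highest. These are all short mRNAs, for which FPKM depends strongly on the transcript length assumed.

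At the low end stood Rpl26, Rps15a, Rpl30, Rpl22 and Rpl37. Rps15a was at 105 FPKM in the mutant and 99.5 FPKM in wild type. Rpl30 was at 179 FPKM in the mutant and 148 FPKM in wild type, and Rpl22, an RNA-binding protein at the surface of the large subunit, at 372 FPKM in the mutant and 343 FPKM in wild type. Rpl37 was at 526 FPKM in the mutant and 509 FPKM in wild type. Apart from Rpl26, the levels of the members were closely related between the genotypes, with a Pearson r of 0.997 for log2(FPKM + 1) across 81 genes. This is a description of genes within pooled values, and low paralogs such as Rpl3l widen its range. Over all genes kept the Pearson r was 0.979.

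**Figure D1:**
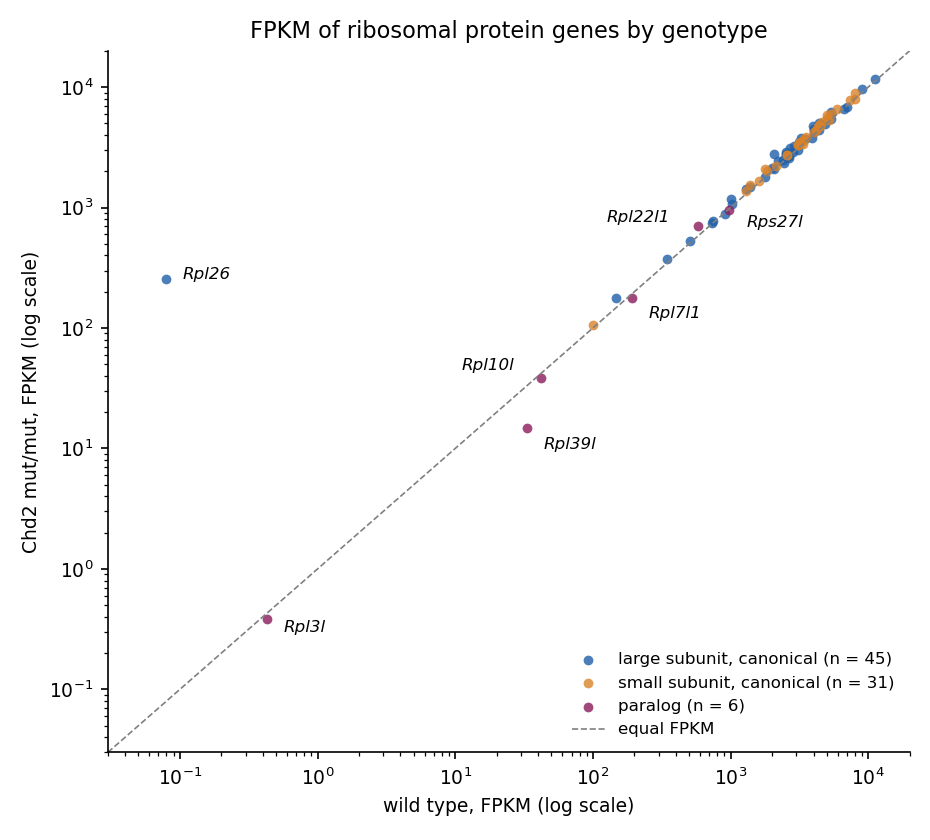
FPKM of the 82 ribosomal protein genes in Chd2 mut/mut cells (vertical, log scale) against wild type (horizontal, log scale), 1 point per gene, coloured by subunit and for paralogs, with a dashed line of equal FPKM. Most members lie close to the line, Rpl39l lies below it at 14.9 FPKM in the mutant and 33.0 FPKM in wild type, and Rpl26 lies far above it at 254 FPKM in the mutant and 0.0795 FPKM in wild type.

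Rpl26 is treated as a failed estimate and not as a difference. It encodes a protein of the large subunit that lies near the exit of the tunnel. It was listed at 254 FPKM in the mutant and 0.0795 FPKM in wild type, where the lowest other canonical member was at 99.5 FPKM. Its q-value in the authors' deposited table is 0.959, beside a log2 fold change of 11.64, so it was not called. Of the 50-base stretches of its main GENCODE transcript, 71.3% also occur in transcripts of 12 other annotated genes, pseudogenes included. The part of this overlap in the listed values was not tested. Medians below are given without Rpl26 where it matters.

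Sharing of sequence concerns most members. Of the 75 other canonical members, 36 shared more than 50% of the 50-base stretches of their main transcript with another annotated gene. How the authors divided such reads between a gene and its copies is not given in the labels or headers, so the level of a single canonical gene is uncertain. Along these 75 genes, differences between the genotypes had a Spearman rho of 0.12 with the share of such stretches. The 5 genes with at most 10% shared had a median difference of 0.075 on the log2(FPKM + 1) scale, and the 36 with more than 50% shared had one of 0.11.

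Across the canonical genes the mutant had slightly higher values than wild type, by a similar small amount in most of them. On the log2(FPKM + 1) scale, the value of the mutant minus that of the wild type was above 0 for 66 of 76 canonical genes. With Rpl26 left out it was 65 of 75. The median over the 76 was 0.097, with a lower and upper quartile of 0.049 and 0.14, and it corresponds to a fold of 1.07. Over all genes kept, 49.6% lay above 0, with a median of -0.0012. Under quantile normalization, which forces the same distribution on both genotypes, the median of the canonical genes stayed above 0 at 0.043, with 51 of 76 above 0, while all genes kept had a median of 0.0074 with 52.0% above 0. Of all 81 members kept, 64.2% lay above 0 and 28.4% below under that normalization, against 82.7% and 17.3% as deposited. Without Rpl26 the 75 genes ran from -0.062 to 0.42, and 73 of them differed by less than 0.25. None of the 76 was called in the authors' deposited table, where the lowest q-value among them was 0.186, so no canonical gene taken alone was shown to differ.

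Compared with other abundant genes, the members lay on the other side of 0. The 68 members with a mean of at least 1000 FPKM had a median difference of 0.098, with 59 above 0, while the 61 other genes at that level had a median of -0.044, with 23 above 0, and under quantile normalization the medians were 0.041 and -0.048. Between 100 and 1000 FPKM, 11 members had a median of 0.070 and 875 other genes one of -0.074, or -0.0085 under quantile normalization. The same held among short coding sequences. The 53 canonical genes other than Rpl26 with up to 600 coding bases had a median of 0.096, and the 300 other genes of at least 100 FPKM with such short coding sequences had one of -0.062. FPKM is relative to the library, so a higher share held by the members goes with a lower share of all other genes together. Not every level class was lower. The 5109 other genes between 1 and 10 FPKM had a median of 0.034, with 2963 above 0. These medians carry no test, since the spread between libraries of 1 genotype is unknown.

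**Figure D2:**
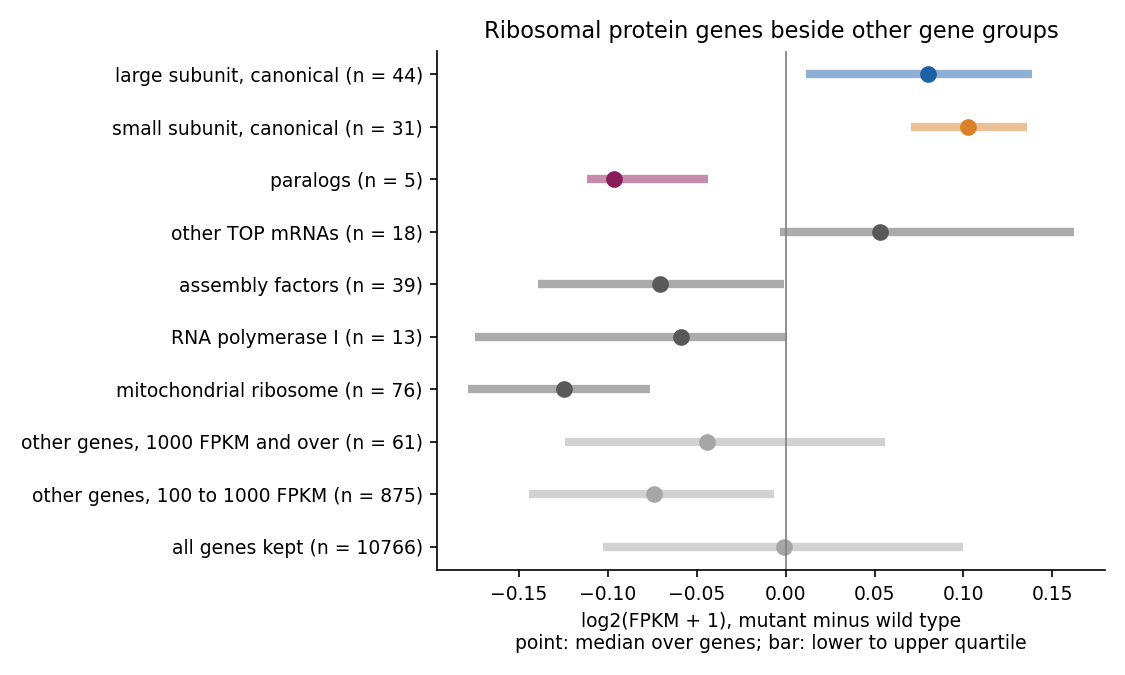
Median (point) and lower to upper quartile (bar) of the log2(FPKM + 1) difference (mutant minus wild type) over the genes of each group named at the left, without Rpl26, with the number of genes in brackets. Both subunits lie right of 0 at 0.080 and 0.10 and keep that side under quantile normalization, while the paralogs (-0.096), the mitochondrial ribosome (-0.12) and other genes of at least 1000 FPKM (-0.044) lie left of it, also with that normalization.

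Small-subunit genes were the more uniform set. Of the 31 canonical small-subunit genes, 30 lay above 0, and Rps28 was the exception at -0.0053. Their median was 0.10, with quartiles of 0.071 and 0.14. Of the 45 canonical large-subunit genes, 36 lay above 0, or 35 of 44 without Rpl26. Their median was 0.085, or 0.080 without Rpl26 and with quartiles of 0.011 and 0.14. Under quantile normalization 22 of 31 small-subunit and 29 of 45 large-subunit genes lay above 0, with medians of 0.044 and 0.042, so the medians of the subunits then differed by less. The difference between the subunits was not tested.

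**Figure D3:**
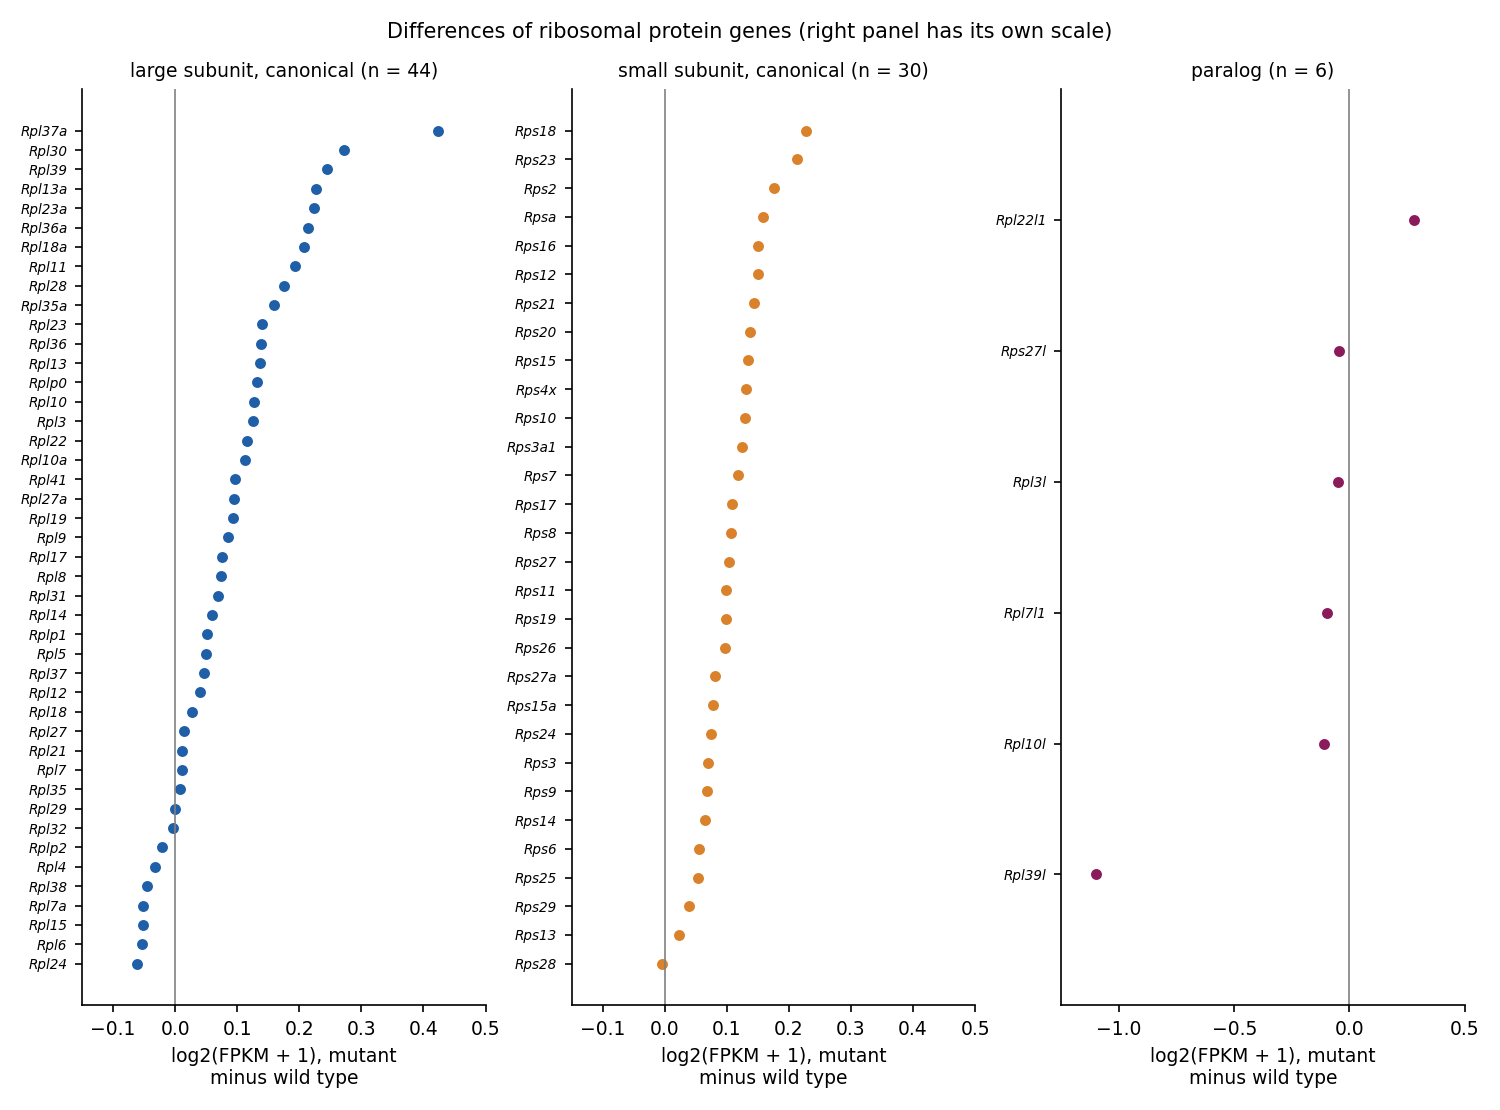
Mutant minus wild type on the log2(FPKM + 1) scale for ribosomal protein genes, without Rpl26, in panels for the large subunit, the small subunit and the paralogs, sorted by value, with a vertical line at 0. Small-subunit genes run from -0.0053 (Rps28) to 0.23 (Rps18), large-subunit genes from -0.062 (Rpl24) to 0.42 (Rpl37a), and Rpl39l stands alone at -1.10 on a wider scale.

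The largest positive differences, Rpl26 aside, were mostly in large-subunit genes. Rpl37a, a protein of the large subunit, was at 2778 FPKM in the mutant and 2071 FPKM in wild type, a difference of 0.42, with a q-value of 0.186 in the authors' deposited table. Rpl30 and Rpl39, given with their levels above and below, followed at 0.27 and 0.25. Rpl13a was at 3773 FPKM in the mutant and 3223 FPKM in wild type. Among the rest of the 8 highest, Rpl22l1 is described with the paralogs, Rps18, of the head of the small subunit, was at 5846 FPKM in the mutant and 4995 FPKM in wild type, and Rpl23a, at the tunnel exit where the signal recognition particle docks, was at 6244 FPKM in the mutant and 5346 FPKM in wild type. At least 1.2-fold higher values were listed for Rpl26, Rpl37a, Rpl22l1 and Rpl30, or 4 of 81 members kept, against 9.74% of all genes kept. Without Rpl26 it was 3 of 80 members. The share of all genes kept includes 16.4% of other genes between 1 and 10 FPKM, where no member kept lay. From 100 FPKM up the counts of members were too small to give an order, and none of these members was called. Between 100 and 1000 FPKM such values were listed for 3 of 11 members, the failed estimate Rpl26 among them, against 2.86% of other genes. At 1000 FPKM and over it was 1 of 68 members against 0 of 61 other genes. One member, Rpl39l, was at least 1.2-fold lower, against 8.43% of all genes kept.

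On the negative side the canonical differences were very small. Rpl24 was lowest with 2359 FPKM in the mutant and 2462 FPKM in wild type, a difference of -0.062. Rpl6 was at 2558 FPKM in the mutant and 2656 FPKM in wild type, Rpl15 at 883 FPKM in the mutant and 916 FPKM in wild type, and Rpl7a at 3773 FPKM in the mutant and 3911 FPKM in wild type. Of the 8 lowest members, 4 were paralogs, described below.

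By role, proteins of the large subunit had small differences on both sides of 0. The stalk, which recruits elongation factors, had Rplp0 at 4396 FPKM in the mutant and 4010.4 FPKM in wild type, and Rplp2 at 6611 FPKM in the mutant and 6705 FPKM in wild type, with differences of 0.13 and -0.020, and Rplp1 between them at 0.051. Under quantile normalization Rplp1 and Rplp2 are at 0, since each has the same rank in both genotypes. Rpl5 and Rpl11 join the 5S rRNA in a particle that also binds the p53 inhibitor Mdm2 when assembly fails. Rpl5 was at 1063 FPKM in the mutant and 1027 FPKM in wild type, and Rpl11 at 2910.1 FPKM in the mutant and 2544 FPKM in wild type. Mdm2 itself was at 29.7 FPKM in the mutant and 29.3 FPKM in wild type.

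Of the proteins that line the exit tunnel, Rpl4 was at 2998 FPKM in the mutant and 3066 FPKM in wild type, a difference of -0.033. Rpl17 was at 2115 FPKM in the mutant and 2008 FPKM in wild type, at 0.075. Rpl23 and Rpl24 form the face where the assembly factor Eif6 keeps the subunits apart, and they lay on opposite sides of 0, at 0.14 and -0.062. Mouse mutations of Rpl38 and Rpl24 give tail and skeletal defects, and in Rpl38 mutants the translation of Hox mRNAs is reduced. Rpl38 was at 6817 FPKM in the mutant and 7038 FPKM in wild type, a difference of -0.046, so both of these genes lay slightly below 0 as deposited, while Rpl38 was at 0 under quantile normalization.

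In the small subunit, proteins around the mRNA entry and the decoding centre all lay above 0, also under quantile normalization. Rps2 was at 6012 FPKM in the mutant and 5323 FPKM in wild type, Rps3 at 1362 FPKM in the mutant and 1297 FPKM in wild type, and Rps15 at 4838 FPKM in the mutant and 4409 FPKM in wild type, with differences of 0.18, 0.070 and 0.13. The platform and head proteins Rps7, Rps14, Rps25 and Rps26 lay between 0.053 and 0.12, but Rps14 and Rps26 were below 0 under quantile normalization. Rps6, the substrate of S6 kinase and a readout of mTOR signalling, was at 1667 FPKM in the mutant and 1605 FPKM in wild type. Rps27a, made as a fusion with ubiquitin, was at 3291 FPKM in the mutant and 3111 FPKM in wild type.

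Heterozygous loss of any of several ribosomal protein genes causes Diamond-Blackfan anaemia in humans. Of 16 mouse orthologs of such genes, 14 lay above 0 as deposited and 8 under quantile normalization, with medians of 0.086 and 0.0043, the list including Rpl26. All 4 X-linked members lay above the median of the canonical genes, and above 0 under quantile normalization too. Rpl39 was at 4730.1 FPKM in the mutant and 3991 FPKM in wild type and Rpl36a at 3145 FPKM in the mutant and 2712 FPKM in wild type, while Rps4x and Rpl10 both had a difference of 0.13. The 330 other X-linked genes kept had a median of 0.026, with 56.1% above 0. Members with a pyrimidine tract near the start had a median of 0.085 (34 canonical genes) and those without one a median of 0.12 (21 genes). The tract as defined here thus did not mark the members with higher differences. It is a match of letters near an annotated start, so a gene without it can still have a TOP mRNA. The difference was not tested.

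The paralogs held the only member called. Rpl39l was at 14.9 FPKM in the mutant and 33.0 FPKM in wild type, and was 2.22-fold lower in the mutant. It fell by 1.15 on the log2 scale of the authors' deposited table, where its q-value of 0.0103 is the smallest of all and is shared by 55 genes. This is 1 call among the 81 members with a q-value under 1, against 0.718% of all 11276 such genes called in either direction, 0.461% called lower and 0.257% called higher. Among called genes that fell, Rpl39l ranked 19 by fold change, and it is 1 of 6 called genes that were at least 2-fold lower from a wild-type level of at least 10 FPKM. Its coding sequence of 153 bases has the same length as that of Rpl39, but no 50-base stretch of its main transcript occurs in another annotated gene.

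Against Rpl39l, its partner Rpl39 differed by 0.25 in the other direction and was not called, with a q-value of 0.749 in the authors' deposited table. Rpl39l therefore made up 0.313% of the summed FPKM of the pair in the mutant and 0.820% in wild type, so that Rpl39 was 318 times as abundant in the mutant and 121 times in wild type. The FPKM of the pair was almost wholly that of Rpl39 in both genotypes. None of the 3 listed protein-coding genes on either side of Rpl39l on chromosome 16 (GRCm38 order) was called. Grin2a and Tekt5 among them were under 1 FPKM in both genotypes, and of all genes with a q-value under 1 only 0.718% were called. So few neighbours cannot show whether the fall is confined to Rpl39l. Its closest neighbours, chosen by position, were Grin2a, listed at 0 FPKM in the mutant and 0.0581 FPKM in wild type, and Atf7ip2, at 7.73 FPKM in the mutant and 9.20 FPKM in wild type.

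Rpl22l1 was the one paralog above its partner in level. It was at 705 FPKM in the mutant and 581 FPKM in wild type, while Rpl22, which in mouse is known to restrain Rpl22l1, was at 372 FPKM in the mutant and 343 FPKM in wild type. Rpl22l1 held 65.5% of the pair in the mutant and 62.9% in wild type. Of the 50-base stretches of its transcript, 57.3% also occur in other annotated genes, against 24.5% for Rpl22. The level of Rpl22l1 and its share of the pair are therefore uncertain too. Its difference of 0.28 was not called, with a q-value of 0.663 in the authors' deposited table, and both genes of this pair lay above 0.

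The other paralogs had small differences, all below 0 and none called. Rps27l, a p53 target, was at 951 FPKM in the mutant and 980.1 FPKM in wild type, which is 10.8% of its pair with Rps27 in the mutant and 11.8% in wild type. Rpl7l1 was at 179 FPKM in the mutant and 191 FPKM in wild type, beside Rpl7 at 2665 FPKM in the mutant and 2644 FPKM in wild type. Rpl10l, an autosomal gene that stands in for the X-linked Rpl10 in mouse spermatocytes, was at 38.6 FPKM in the mutant and 41.8 FPKM in wild type, and Rpl10 at 2769 FPKM in the mutant and 2535 FPKM in wild type. Of the 50-base stretches of the Rpl10l transcript, 7.60% are shared. Rpl3l, the paralog of Rpl3 in striated muscle, was near 0, with 0.383 FPKM in the mutant and 0.431 FPKM in wild type. Of the 5 paralogs kept, 1 lay above 0 and the median was -0.096, or -0.050 with again 1 above 0 under quantile normalization. In 5 of the 6 pairs the paralog's difference minus that of its partner was negative, between -1.35 and -0.11 on the log2(FPKM + 1) scale. In these pairs the paralog was also far below its partner in level. Of other genes between 100 and 1000 FPKM, where Rps27l and Rpl7l1 lay, 76.8% were below 0, with a median of -0.074. The part of level in the pair values was not tested. The 5 pairs include that of Rpl3l, which was below the filter. The pair value of -0.17 comes from -0.049 for Rpl3l and 0.13 for Rpl3.

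**Figure D4:**
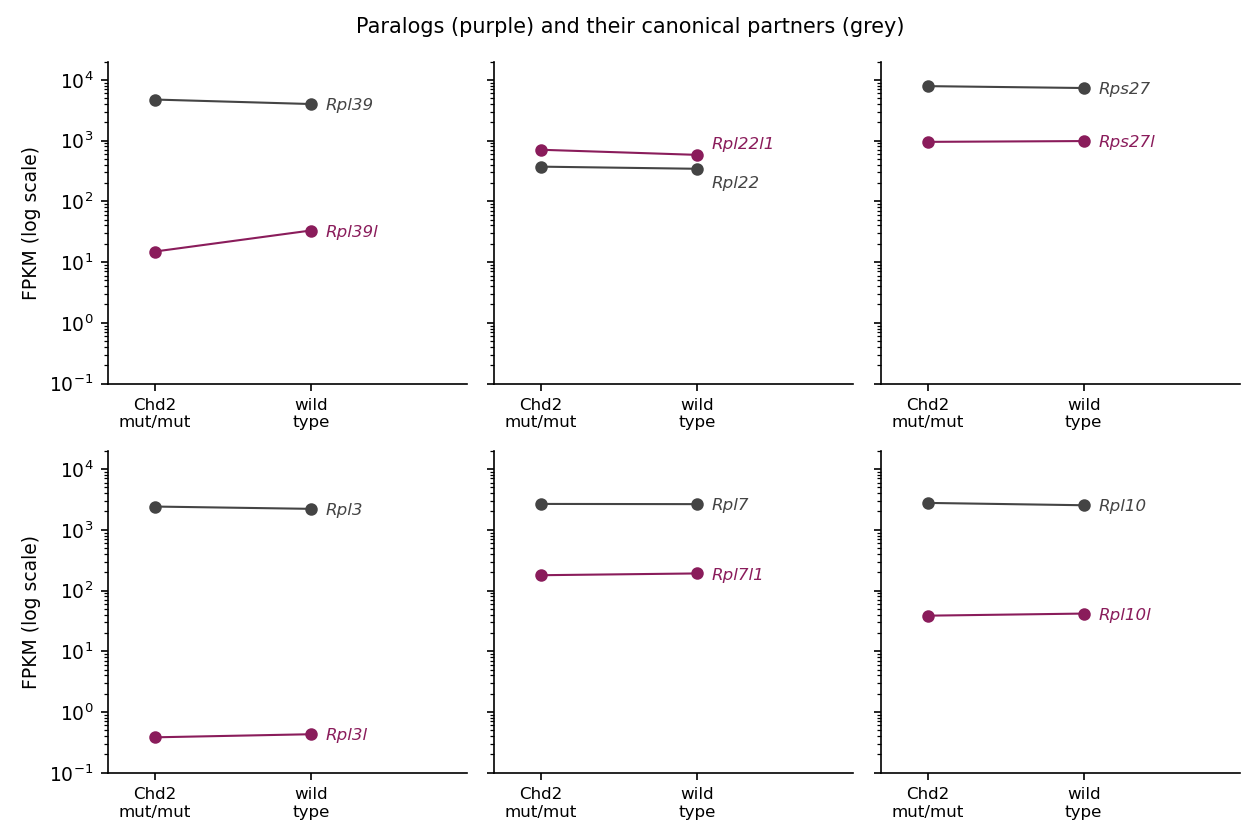
FPKM (log scale) of each paralog (purple) and its canonical partner (grey) in Chd2 mut/mut cells, left, and wild-type cells, right, with 1 point per gene and genotype joined by a line. Rpl39l has the steepest slope of the 6 paralogs, at 14.9 FPKM in the mutant and 33.0 FPKM in wild type, and Rpl22l1 is the only one that lies above its partner.

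Genes that work with the ribosomal proteins were set beside them, from lists chosen by function. Fau, which encodes a further ribosomal protein fused to a ubiquitin-like protein, and Gnb2l1, which encodes the small-subunit scaffold Rack1, had differences of 0.11 and 0.091. Rpl36al, a near copy of Rpl36a that the symbol pattern leaves out, was at 1220 FPKM in the mutant and 1395 FPKM in wild type. Its difference of -0.19 was opposite in sign to the 0.21 of Rpl36a, and it was not called. Of the 50-base stretches of the Rpl36a transcript, 85.5% also occur in other annotated genes. The part of this overlap in the 2 values was not tested. The 18 other transcripts with a known TOP, the noncoding Gas5 and Snhg1 among them, had a median of 0.053, with 13 above 0 and no call. Under quantile normalization their median was 0.11, with 12 above 0, and lay above the 0.043 of the canonical genes. The elongation factor gene Eef1a1 was at 8853 FPKM in the mutant and 7683 FPKM in wild type, and Eef2 at 1779 FPKM in the mutant and 1587 FPKM in wild type.

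Genes that build ribosomes mostly had values below 0. Other genes did so too, by a wider margin between 100 and 1000 FPKM than between 10 and 100 FPKM. Of 39 assembly factors, 30 (76.9%) lay below 0, with a median of -0.071 and no call. Of other genes between 100 and 1000 FPKM 76.8% lay below 0, with a median of -0.074, and of the 4640 between 10 and 100 FPKM 2553 did, with a median of -0.017. Among the assembly factors was Bop1, a processing factor of the large subunit, at 91.2 FPKM in the mutant and 109 FPKM in wild type. RNA polymerase I and its factors, which make rRNA, had a median of -0.059 with 8 of 13 below 0. The 76 mitochondrial ribosomal protein genes had a median of -0.12, with 70 (92.1%) below 0 and none called. Their median level was 65.6 FPKM in the mutant and 68.6 FPKM in wild type. Their median difference was lower than that of other genes in either level class. One of them, Mrps35, was at 45.6 FPKM in the mutant and 59.7 FPKM in wild type. Under quantile normalization the median was -0.063 for the mitochondrial ribosome, with 64 below 0, and -0.017 for assembly factors, with 23 below 0, while that of RNA polymerase I was 0. The 20 regulators had no call and a median of 0.054, with Myc at 51.5 FPKM in the mutant and 57.9 FPKM in wild type, Mycn at 50.2 FPKM in the mutant and 41.9 FPKM in wild type, and Larp1 at 66.9 FPKM in the mutant and 63.0 FPKM in wild type.

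Markers of embryonic stem cells and transcripts followed as signs of RNA quality lay mostly above 0, as the members did. The 10 stem cell markers had a median difference of 0.15 with 8 above 0, or 0.18 with 9 above 0 under quantile normalization. Of 7 nuclear or noncoding transcripts kept, 6 lay above 0, with a median of 0.19, and the 8 listed summed to 331 FPKM in the mutant and 306 FPKM in wild type. The exception was Rpph1, the RNA of ribonuclease P, at 1.13 FPKM in the mutant and 5.33 FPKM in wild type, a difference of -1.57 that was not called. Gas5 and Snhg1 of that list are themselves TOP transcripts. The part of both lists in the differences of the ribosomal protein genes was not tested. In these bulk samples, a change in the cells of the culture and a change in RNA per cell cannot be told apart.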

How the data were processed

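RNA was measured in 2 libraries of each genotype. Per the submitters' processing notes, the authors used bcl2fastq 2.17.1.14, TopHat2 2.1.0 and Cufflinks with build mm9. The deposited values are 1 FPKM per gene and genotype. Per the file headers, the table further holds the authors' log2 fold change (mutant against wild type), their q-value and their call. The largest q-value of a called gene is 0.0487 and the smallest of an uncalled gene is 0.0531, and neither labels nor headers name the test behind them. The depth is unknown.

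A limma fit of libraries was planned for a table with values per library and could not be run. Genes were kept at a mean of 1 FPKM or more, and differences were taken on log2(FPKM + 1), which understates the change of low genes. Lists are described by counts and medians beside all genes kept, with no test of a list. The computation of these medians was tested on simulated data with known shifts. Members and lists were chosen with earlier results of these data known. Named genes followed a rule: Rpl26, paralog pairs, called members, the 8 largest differences in each direction, the 5 most and least abundant canonical members, members of role groups, and up to 3 genes of a related list.

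Biotypes, chromosomes and promoters came from RefSeq GRCm38.p6 and transcripts from GENCODE M21, matched by symbol, so no coordinate of the authors' build is given. The main transcript was chosen by APPRIS rank, support level and coding length. Python 3.11.15, pandas 2.3.3, numpy 2.4.6 and scipy 1.17.1 were used. Some members that enter the counts are not reported here by name, and a small-subunit gene is left out of the plot of differences.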

Additional observations from a re-analysis of the deposited data

How the results depend on the processing

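Pseudocounts of 0.1 and none, filters of none, 5 and 100 FPKM, the median of all genes set to 0, quantile normalization, leaving out Rpl26, leaving small RNA genes out of the sum, and keeping Rps4y2 (chosen after seeing the data) reversed none of the values recomputed under them, which are the median differences of all members, of canonical genes and of each subunit, the shares of summed FPKM, and the differences of Rpl39l, Rpl22l1 and Rps27l. Other medians and differences were recomputed under quantile normalization alone, where the text gives that value. With no replicates, a value was counted as moved when it changed by more than 1.5 times. Only quantile normalization moved any. The median difference under it was 0.041 for all members, 0.042 for the large subunit, 0.044 for the small subunit and 0.043 for canonical genes, and the difference of Rps27l was -0.0091. The members fill most of the upper end of the distribution that this method makes equal. Rpl39l lay between -1.15 and -1.08 in all settings that touch it. No paired analysis was possible because the table has 1 column per genotype and no lot numbers, and for the same reason no library could be left out. Unknown depth and reads shared with copies limit single genes.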
